A study of Drosophila melanogaster with 13 samples.

Results

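The genome-wide binding of Abdominal-B (Abd-B) was compared with that of Ultrabithorax (Ubx), peak by peak, in Drosophila Kc167 cells. The comparison took the deposited ChIP-Seq peaks of both proteins called at a q-value of 1e-10 (stringent peaks), 9681 for Abd-B and 4830 for Ubx. These 14511 peaks were part of 34149 stringent peaks in 6 binding profiles, and they came from 4 of the 13 samples of the series. The lists called at a q-value of 1e-2 (relaxed peaks) numbered 12322 for Abd-B and 8604 for Ubx. An Abd-B peak and a Ubx peak were partners when their shared bases made up at least 5% of the length of each.

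Both proteins were expressed as fusions to GFP in Experiment 1. Kc167 is an embryo-derived cell line that makes no Hox protein of its own, and its Extradenticle (Exd) stays in the cytoplasm because Homothorax (Hth) is absent. Cells of a single harvest were transiently transfected with a copper-inducible construct for Abd-B-GFP or Ubx-GFP and sorted for equal GFP fluorescence, and chromatin was precipitated with the same anti-GFP antibody. Each protein had 2 biological replicates, sequenced as 36 bp read pairs. The reads of the replicates were combined before peak calling, so the lists hold no replicate error and no test across samples could be made. The 4 other profiles used here for reference were Abd-A of Experiment 1, and Ubx (1 replicate), a mutant Ubx with altered DNA-contacting homeodomain residues, and Ubx together with Hth (Ubx+Hth), all of Experiment 2 with 100 bp reads. All 6 profiles were called against the input chromatin of Experiment 1, which they share.

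Ubx, Abd-A and Abd-B are the Hox proteins of the Bithorax complex, transcription factors that bind DNA through a homeodomain and give segments along the body axis their identity. Ubx acts in the posterior thorax and anterior abdomen, where it is known for setting the haltere apart from the wing, while Abd-B acts in the most posterior abdominal segments and the genitalia. Many Hox proteins bind DNA together with the homeodomain cofactors Exd and Hth; Ubx contacts Exd through a short hexapeptide motif whose canonical form Abd-B lacks. Both proteins were thus assayed here without these cofactors.

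The Abd-B list was longer, and its peaks were wider and scored higher. The median width was 598 bp for Abd-B and 493 bp for Ubx, and the stringent peaks covered 8.47 Mb for Abd-B and 3.14 Mb for Ubx. The deposited score gives the q-value of a peak as -log10. It ran from 10.0 to 483 with a median of 68.0 for Abd-B, and from 10.0 to 409 with a median of 36.0 for Ubx. Sequencing depth is not given in the lists. The Abd-B library was sequenced more deeply than that of Ubx, and the part of depth in the longer Abd-B list was not tested. Scores were therefore ranked within each list and not set on a common scale. Intervals given below are Wilson 95% intervals that cover the counting of peaks only; neighbouring peaks are not independent.

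Of the 9681 Abd-B peaks, 5473 had no stringent Ubx partner (56.5%, interval 55.5 to 57.5%). Of these, 2453 had no relaxed Ubx partner either (25.3% of all Abd-B peaks, 24.5 to 26.2%), while 3020 had a relaxed Ubx partner only (31.2%, 30.3 to 32.1%). The remaining 4208 Abd-B peaks had a stringent Ubx partner (43.5%, 42.5 to 44.5%). With only the 4830 highest-scoring Abd-B peaks kept, so that both lists were of equal length, 33.3% of Abd-B peaks had no stringent and 12.6% no relaxed Ubx partner. Measured in bases, the peaks with no relaxed partner held 14.8% of the Abd-B peak length, those with a relaxed partner only 21.6%, and those with a stringent partner 63.6%. Stringent Ubx peaks covered 36.1% of the bases in Abd-B peaks, and stringent Abd-B peaks covered 97.3% of the bases in Ubx peaks. The 5% limit itself decided little for the Abd-B peaks, as 4732 overlapping pairs were counted and 17 were left out. The lowest reciprocal overlap of a counted pair was 5.08% and the highest of a pair left out was 4.98%.

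The 3 classes differed in strength and width. Abd-B peaks with no relaxed Ubx partner had a median score of 41.2 and a median width of 421 bp. Those with a relaxed partner only had a median score of 52.3 and a median width of 486 bp. Those with a stringent partner had a median score of 106 (quartiles 69.7 and 157) and a median width of 970.5 bp. Strong peaks occurred in every class, however, and the highest score was 405 without a relaxed partner and 359 with a relaxed partner only.

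When the Abd-B list was divided by score into 10 bins of 968 or 969 peaks, the share without a relaxed partner was 8.06% in bin 1 (the highest scores), 18.1% in bin 5 and 56.9% in bin 10. The share with a relaxed partner only was 11.3% in bin 1, was largest in bin 7 at 46.2%, and was 36.2% in bin 10. The share with a stringent partner fell from bin to bin, with 80.7% in bin 1, 49.5% in bin 5 and 6.91% in bin 10. Thus 78 of the 968 strongest Abd-B peaks had no Ubx partner at either q-value, and 109 had a relaxed one only.

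**Figure D1:**
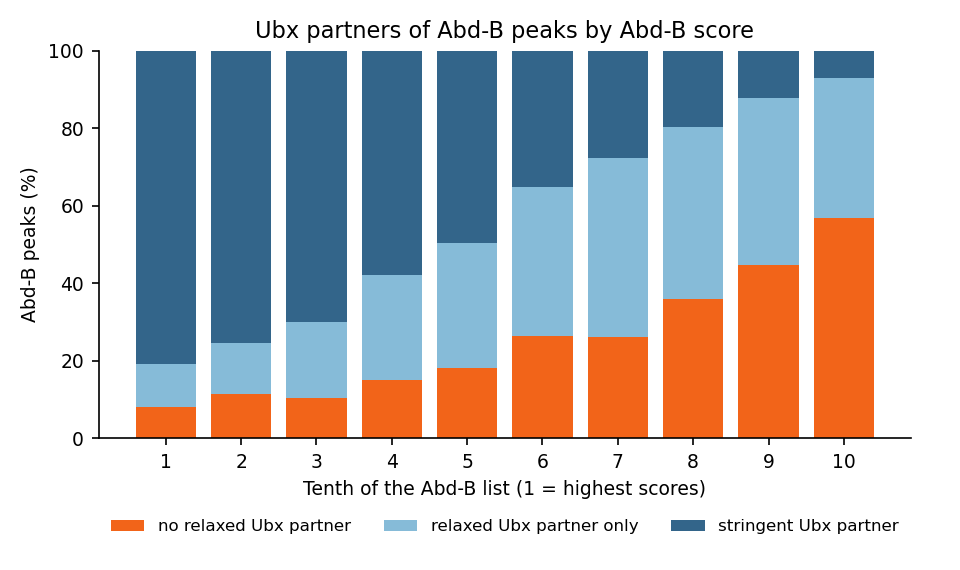
Stacked bars show the percentage of Abd-B peaks in each of 10 equal bins of the stringent Abd-B list (x axis, bin 1 with the highest scores) that had no relaxed Ubx partner, a relaxed Ubx partner only, or a stringent Ubx partner. The peaks without a relaxed partner make up 8.06% of bin 1 and 56.9% of bin 10, and the peaks with a stringent partner 80.7% of bin 1 and 6.91% of bin 10.

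The classes also differed by width within bins of score. Within each of 5 score bins, the peaks narrower than the bin's median width lacked a partner more often than the wider ones. In the highest-scoring of the 5 bins, 160 of 969 narrower peaks (16.5%; median width 867 bp) and 28 of 967 wider peaks (2.90%; 2154 bp) had no relaxed Ubx partner. In the same bin, 34.8% of the narrower and 9.20% of the wider peaks had no stringent partner. In the lowest-scoring bin, 57.6% of the narrower and 44.1% of the wider peaks had no relaxed partner. The narrower peaks also scored lower, with median scores of 165 for narrower and 204 for wider peaks in the highest bin and 25.6 and 27.9 in the lowest, and the part of score in the difference was not tested.

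The 8 highest-scoring Abd-B peaks with no relaxed Ubx partner ranked between 7 and 143 of the 9681. The strongest, on 2R from 4074138 to 4075192 (BDGP release 5), scored 405 at rank 7, and the nearest Ubx peak lay 3271 bp away in the stringent list and 3159 bp in the relaxed list. The second, on 2L from 6407134 to 6407954, scored 360.45 at rank 30 and lay 3365 bp from a stringent Ubx peak. Both lay in neighbourhoods that Ubx also occupied.

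The next in rank, on 3R from 17971696 to 17972678, scored 340 at rank 63. It lay 47562 bp from a stringent and 11999 bp from a relaxed Ubx peak, and it belonged to a longer stretch without stringent Ubx peaks, described below. The peak on 2L from 2422344 to 2423113 (score 311, rank 136) was similarly remote, at 41179 bp from a stringent and 27680 bp from a relaxed Ubx peak. The other 4 lay within 12 kb of a stringent Ubx peak. The closest of them, on 3R from 5256217 to 5257064 (score 319, rank 110), was 1042 bp from one. The peak on 3R from 10532379 to 10535071 (score 308, rank 143) was the only one of the 8 wider than 2 kb, at 2693 bp, and a relaxed Ubx peak lay 392 bp from its edge.

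Among Abd-B peaks with a relaxed Ubx partner only, the strongest lay on 3R from 19845320 to 19846701, with an Abd-B score of 359 (rank 31) and a relaxed Ubx score of 12.0. On 3L from 7785422 to 7786780, Abd-B scored 352 (rank 40) and the relaxed Ubx partner 8.90. On 2L from 16444551 to 16445517, Abd-B scored 351 (rank 41) and the Ubx partner 9.87. On 3R from 12173221 to 12174618, Abd-B scored 340 (rank 64) and the Ubx partner 14.05. On 2L from 8545756 to 8546708, Abd-B scored 331 (rank 80) and the Ubx partner 16.0. All 5 sites stood in the top 80 of the Abd-B list and below the middle of the relaxed Ubx list. Over all 3020 peaks of this class the relaxed Ubx partner had a median score of 11.4 (quartiles 7.87 and 15.9), against 38.3 (25.2 and 61.9) at the 4208 sites with a stringent partner.

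The relaxed-only class did not consist only of Ubx peaks that fell short of the stringent score. The relaxed partner scored under 10 at 1217 of the 3020 peaks (40.3%). At the others it scored 10 or more. A relaxed partner that itself held a stringent Ubx peak, too far aside to be a partner, occurred at 99 of the 3020 (3.28%). In the whole relaxed lists, 2202 of 10804 Abd-B peaks with a score of 10 or more (20.4%) and 2160 of 6448 Ubx peaks (33.5%) held no stringent peak. Such peaks were narrow, with a median of 393 bp against 936 bp for Abd-B peaks that held one, and 459 bp against 995 bp for Ubx. The narrowest stringent peaks were 251 bp for Abd-B and 238 bp for Ubx. The highest relaxed score outside any stringent peak was 57.6 for Abd-B and 45.3 for Ubx. When every relaxed Ubx peak with a score of 10 or more counted as a partner, 37.8% of Abd-B peaks were left without one.

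To compare strength and extent at shared sites, an Abd-B and a Ubx peak were paired when each was the partner with which the other shared most bases. This gave 4196 one-to-one pairs from the 4208 matched Abd-B peaks. The Ubx peak lay wholly inside the Abd-B peak in 3404 pairs (81.1%), and the Abd-B peak lay inside the Ubx peak in 70 (1.67%). The median width was 971 bp for Abd-B and 514.5 bp for Ubx. The width of the Abd-B peak divided by that of its Ubx partner had a median of 1.64 (quartiles 1.26 and 2.44, range 0.371 to 11.4). Abd-B was the wider in 3968 pairs (94.6%), and at least 2 times as wide in 1527 (36.4%). The midpoints of partners had a median offset of 90 bp (quartiles 34 and 236 bp), and 2232 pairs (53.2%) had midpoints within 100 bp. Pairing by shared bases itself favours close midpoints. The shared sites thus had broader Abd-B peaks.

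The ratio of widths was largest where Ubx was weak. In 5 bins of pairs by Ubx score, from highest to lowest, the median ratio was 1.42, 1.51, 1.59, 1.76 and 1.97. From the highest to the lowest bin, the median width fell from 938 to 347 bp for Ubx and from 1607 to 757 bp for Abd-B. Widths followed scores within each list, with a Spearman coefficient of 0.689 over the 9681 Abd-B peaks and 0.602 over the 4830 Ubx peaks. Binning by Ubx score thus also sorts the pairs by Ubx width, by which the ratio is divided. This itself favours larger ratios in the weaker bins, so the rise is not a separate result. The widths of partners had a coefficient of 0.671 over the 4196 pairs.

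The scores of partners were related, but loosely. Spearman's coefficient of the Abd-B and Ubx scores was 0.485 over the 4196 pairs, which are sites in the same cells, called against the same input, and not replicates. From the highest to the lowest bin by Ubx score, the median percentile of the Abd-B partner in its list was 88.3, 76.9, 70.3, 61.6 and 53.8, where 100 is the top of the list. The weakest Ubx peaks therefore still had Abd-B partners near the middle of the Abd-B list.

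Ranks were compared as percentiles of the full lists. The Abd-B partner had a median percentile of 71.4 and the Ubx partner one of 51.4, and Abd-B minus Ubx had a median of 13.8 points (quartiles -2.30 and 34.6). Abd-B stood higher in 2964 pairs (70.6%). Abd-B exceeded Ubx by over 50 points in 525 pairs (12.5%), and Ubx exceeded Abd-B by as much in 32 (0.763%), while 1243 pairs (29.6%) lay within 10 points. These percentiles refer to the full lists, in which weak Abd-B peaks mostly had no partner while nearly all Ubx peaks had one. When ranks were taken among the paired peaks only, the median difference was -1.10 points (quartiles -18.7 and 17.6). Of the 419 pairs in the top bin of 10 by Abd-B score among pairs, 159 (37.9%) were also in that of Ubx.

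**Figure D2:**
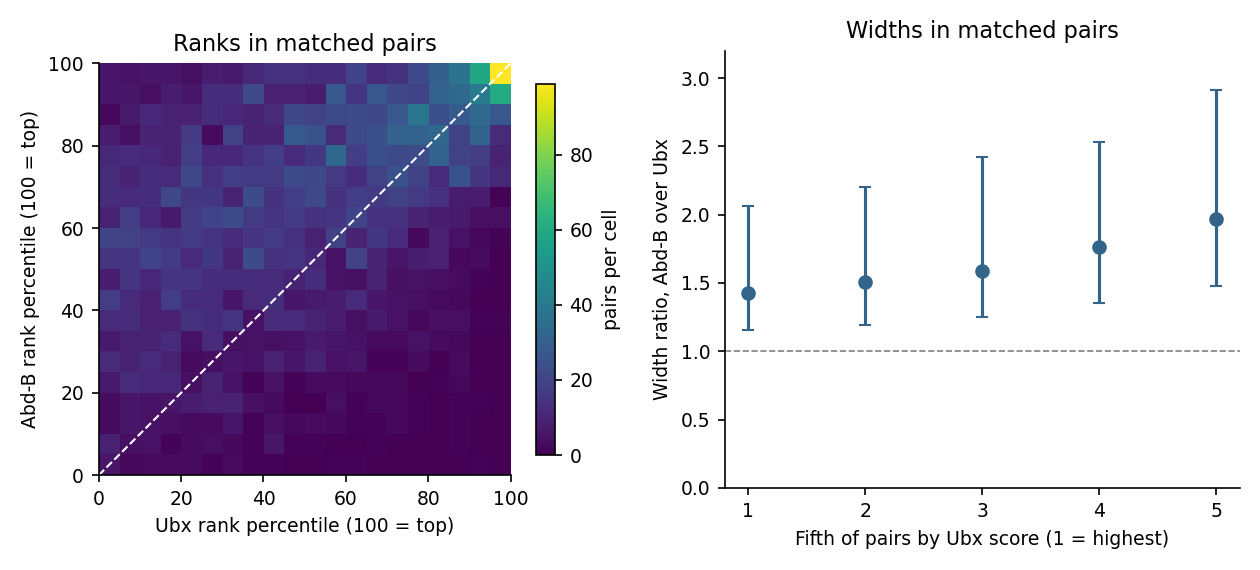
Left, 4196 one-to-one pairs are counted in a grid of the Abd-B rank percentile (y axis) against the Ubx rank percentile (x axis), with the dashed line at equal percentiles and colour giving pairs per cell. Right, the median (point) and quartiles (bars) of the Abd-B over Ubx width ratio are shown for 5 bins of pairs by Ubx score; the medians run from 1.42 in the highest to 1.97 in the lowest bin. Most pairs, 2964 of 4196, lie above the dashed line.

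The 3 pairs with the highest summed rank stood near the top of both lists. On 3R from 4635559 to 4638564, Abd-B scored 390 (rank 12) and Ubx 277 (rank 9). On X from 9475685 to 9480243, Abd-B scored 346 (rank 51) and Ubx 285 (rank 6). On X from 13782357 to 13785826, Abd-B scored 345 (rank 52) and Ubx 298 (rank 5). These were broad peaks, 3006, 4559 and 3470 bp wide for Abd-B, and all 3 had a stringent partner in each of the 4 other profiles.

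Other pairs stood at opposite ends of the lists. On X from 3663969 to 3664954, Abd-B scored 369.5 (rank 24) and its Ubx partner 14.01 (rank 4738 of 4830), a shift of 97.9 points. On X from 13672324 to 13674238, Abd-B scored 270 (rank 274) and Ubx 12.1 (rank 4797). On 2R from 4065538 to 4067332, Abd-B scored 321 and Ubx 14.9 (rank 4688). This site lay on the same stretch of 2R as the strongest Abd-B peak without a relaxed Ubx partner. On 3R from 19764339 to 19765318, Abd-B scored 234 (rank 471) and Ubx 10.3 (rank 4826).

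In the opposite direction, on 3L from 15094626 to 15094923, Abd-B scored 20.3 (rank 9283) and Ubx 97.6 (rank 432), a shift of -87.0 points. On X from 20532637 to 20532960, Abd-B scored 24.5 (rank 8929) and Ubx 84.7 (rank 592). On 2R from 11017129 to 11017659, Abd-B scored 28.6 (rank 8532) and Ubx 78.6 (rank 698). On 3R from 12035008 to 12035613, Abd-B scored 33.8 (rank 7966) and Ubx 96.7 (rank 440). At all 4 sites the Abd-B peak was the narrower, with width ratios of 0.589, 0.714, 0.832 and 0.686. Each had a stringent partner in Ubx of Experiment 2, with scores of 60.0, 52.0, 44.1 and 40.2, so the Ubx peak was also called in the separate transfection. None of the 4 sites with the largest shifts towards Abd-B had a stringent partner there. All but that on X from 3663969 to 3664954 had a relaxed one, with scores of 22.3, 9.39 and 3.35. Their Ubx scores in Experiment 1 lay near the lowest stringent score of 10.0. The choice by rank shift put high Ubx scores in 1 set and low ones in the other, so this contrast is not a separate result.

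Of the 4208 matched Abd-B peaks, 3773 had 1 Ubx partner, 363 had 2, 58 had 3, 11 had 4 and 3 had 5. Thus 435 matched Abd-B peaks (10.3%, 9.45 to 11.3%) had 2 or more separate Ubx partners (0 at a minimum reciprocal overlap of 50%), and 959 of the 4719 matched Ubx peaks (20.3%) shared their Abd-B peak with another. The opposite case, a Ubx peak with 2 Abd-B partners, occurred 13 times. Abd-B peaks with several partners were broad, with a median width of 879 bp for 1 partner, 2449 bp for 2 and 4182.5 bp for 3. The 524 gaps between neighbouring Ubx peaks under the same Abd-B peak had a median of 444.5 bp.

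The 3 Abd-B peaks with 5 Ubx partners lay on X from 12555168 to 12564848 (9681 bp, score 263), on 3R from 17438053 to 17445773 (7721 bp, score 240) and on X from 3669094 to 3675418 (6325 bp, score 385, rank 16). The last neighbours the X site with the largest shift towards Abd-B. A compact Abd-B peak with a low-ranked Ubx partner and a broad one with 5 Ubx partners therefore stood side by side, both within the 24 highest Abd-B ranks.

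Of the unmatched Abd-B peaks, 48.6% lay under 5 kb from a stringent Ubx peak. The 5473 peaks without a stringent partner lay a median of 5261 bp from the nearest stringent Ubx peak (quartiles 2055 and 13106 bp). This median was 3152 bp at a minimum reciprocal overlap of 50%, 3314.5 bp between the relaxed lists and 3382 bp with relaxed Ubx peaks of score 10 or more as partners. The median was 5677 bp (2223 and 14998 bp) for peaks with no relaxed partner and 4905.5 bp (1922 and 11534 bp) for those with a relaxed partner only. For comparison, matched Abd-B peaks lay a median of 4218.5 bp (1614 and 11208 bp) from the nearest Ubx peak that was not their partner. A Ubx peak under 1 kb away was found for 607 unmatched peaks (11.1%, 10.3 to 12.0%), 229 of them with no relaxed partner (9.34% of that class), and for 681 matched peaks (16.2%, 15.1 to 17.3%).

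The long distances also overlapped between classes. The nearest stringent Ubx peak was 20 kb or more away for 447 peaks with no relaxed partner (18.2%), for 432 with a relaxed partner only (14.3%) and, not counting the partner, for 559 matched peaks (13.3%). Peaks with no relaxed partner lay a median of 2574 bp from the nearest relaxed Ubx peak, against 2234.5 bp for the 7228 peaks with a Ubx partner to the nearest relaxed Ubx peak that was not a partner. The medians of the classes differed by less than the quartiles within each class.

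**Figure D3:**
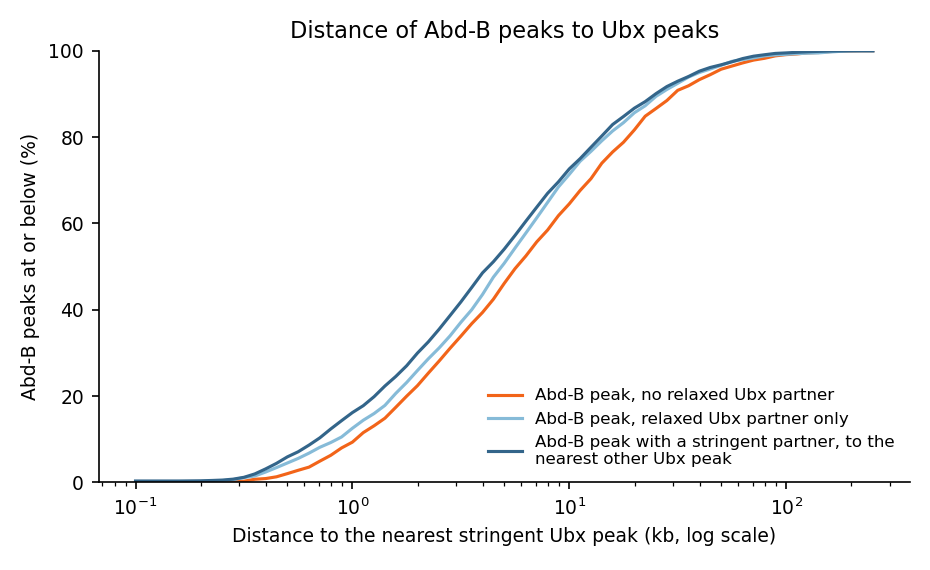
Cumulative percentage of Abd-B peaks (y axis) by the edge-to-edge distance to the nearest stringent Ubx peak (x axis, kb, log scale), for peaks with no relaxed Ubx partner, with a relaxed partner only, and with a stringent partner, for which the partner itself was left out. The 3 curves run close together, with medians of 5677, 4905.5 and 4218.5 bp.

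The most distant peaks lay on 3L and 2L. An Abd-B peak on 3L from 24224258 to 24224818 (score 76.8) lay 202486 bp from a stringent Ubx peak, although a relaxed one lay 2452 bp away. Its neighbours on 3L from 24221414 to 24221729 (score 25.3) and from 24219382 to 24219749 (score 24.2) lay 199642 and 197610 bp from a stringent Ubx peak and had relaxed partners scoring 12.6 and 2.74. On 2L, peaks from 10752276 to 10752958 (score 83.6, no relaxed partner) and from 10769799 to 10770240 (score 109, relaxed partner of 23.0) lay 163338 and 180861 bp from a stringent Ubx peak. The peak on 2L from 16084615 to 16084902 (score 22.1) lay 166684 bp from a stringent and 32721 bp from a relaxed Ubx peak.

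Along the chromosomes, unmatched Abd-B peaks had an unmatched nearest neighbour slightly more often than matched ones did, and at a share close to that of all Abd-B peaks. The nearest Abd-B peak was also unmatched for 3178 of the 5473 unmatched peaks (58.1%, 56.8 to 59.4%), for 2209 of the 4208 matched peaks (52.5%, 51.0 to 54.0%) and for 55.6% of all Abd-B peaks. With lists of equal length, in which 33.3% of Abd-B peaks were unmatched, this held for 37.8% of the unmatched peaks. The difference was larger for peaks with no relaxed Ubx partner. The nearest Abd-B peak belonged to that class for 798 of the 2453 (32.5%, 30.7 to 34.4%) and for 24.8% of all Abd-B peaks. The share was 21.6% for the peaks with a relaxed partner only and 22.5% for the matched peaks. Looking past the immediate surroundings to the nearest Abd-B peak at least 5 kb away, it was unmatched for 57.1% of unmatched and 55.4% of matched peaks. The spacing of Abd-B peaks was alike, with a median distance to the nearest Abd-B peak of 1865 bp for peaks with no relaxed partner, 1775.5 bp with a relaxed partner only and 1640.5 bp with a stringent partner.

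Counted in order along each chromosome, the unmatched peaks formed 2289 uninterrupted runs. Of these, 980 were single peaks, which made up 17.9% of unmatched peaks. Runs of 5 or more numbered 277 and held 1777 peaks (32.5%), and 19 runs of 10 or more held 222 peaks (4.06%). Unmatched peaks made up 56.5% of all Abd-B peaks, a share at which runs occur without any clustering. Whether the runs were longer than that share alone would give was not tested.

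The longest run held 17 Abd-B peaks and spanned 126 kb on 3R from 17869238 to 17995550. Of its peaks, 15 had no relaxed Ubx partner and 2 had a relaxed partner only, with Ubx scores of 5.56 and 10.2. The Abd-B scores ran from 16.2 to 340 with a median of 47.1, and the highest was that of the peak at rank 63 named above. The span held no stringent peak of Abd-A, of Ubx of Experiment 2 or of mutant Ubx, and 2 of Ubx+Hth, with scores of 107 and 10.5. The span was bounded by matched peaks, with Abd-B at 154 and Ubx at 50.1 on the left, and Abd-B at 79.8 and 166 with Ubx at 29.0 and 36.9 on the right.

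**Figure D4:**
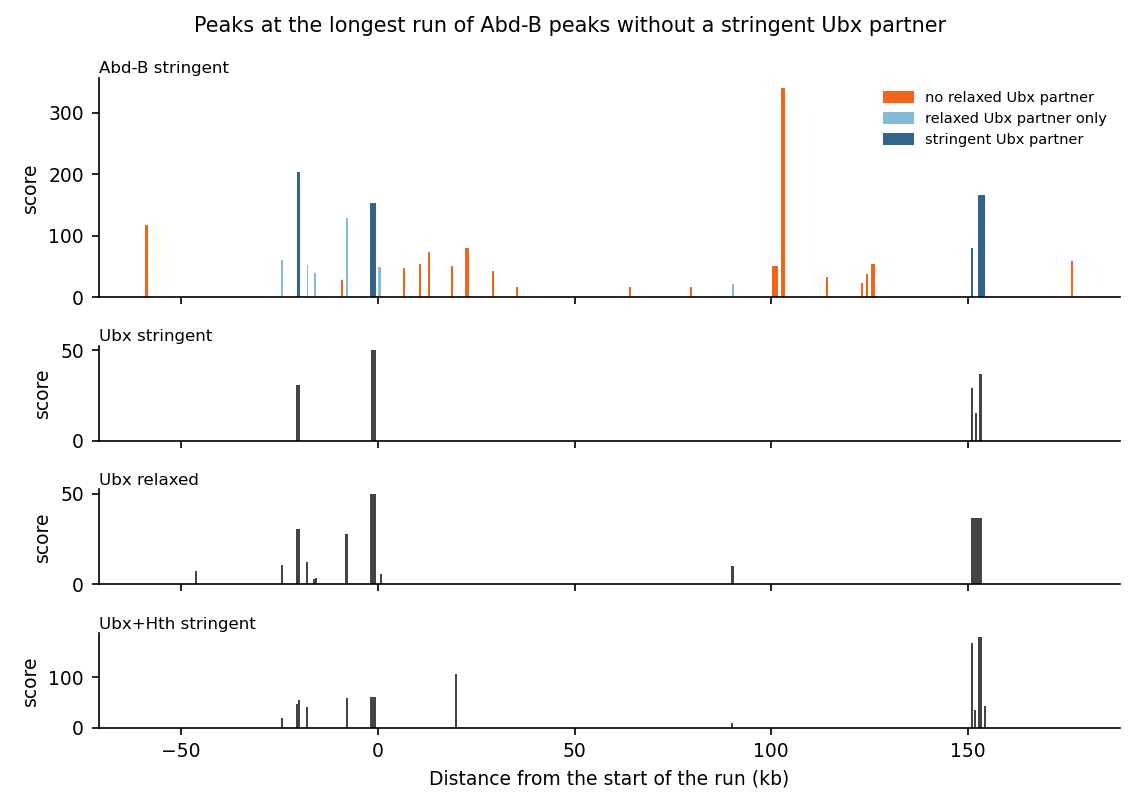
Peaks at the longest run of unmatched Abd-B peaks on 3R, drawn by distance from the start of the run (x axis, kb) with height giving the peak score (y axis, -log10 q-value, on its own scale in each panel). From the top, the panels show stringent Abd-B peaks coloured by class, stringent Ubx, relaxed Ubx and stringent Ubx+Hth peaks. The 17 Abd-B peaks of the run lie over no stringent Ubx peak and 2 relaxed ones.

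The next longest runs were on 2L. One of 16 peaks spanned 216 kb from 8952839 to 9168651, with scores from 20.4 to 230. Here 5 peaks had no relaxed partner and 11 had a relaxed partner only, and the span held 13 relaxed Ubx peaks, 3 stringent Abd-A peaks and 8 of Ubx+Hth. One of 13 peaks spanned 156 kb from 10728844 to 10885186, with scores from 21.4 to 215. In this run 7 peaks had no relaxed partner and 6 had a relaxed partner only, and the span held 8 relaxed Ubx peaks, 6 stringent Abd-A peaks, 1 of Ubx of Experiment 2 and 4 of Ubx+Hth. The run on 3R thus held few stringent peaks of the other profiles, while those on 2L held several relaxed Ubx peaks.

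In fixed windows of 100 kb, 1138 windows held an Abd-B peak, and 109 of these (9.58%) held no stringent Ubx peak. By contrast, 3 of the 1032 windows with a Ubx peak held no Abd-B peak. Of the 822 windows with 5 or more Abd-B peaks, 13 (1.58%) held no stringent Ubx peak, and each of the 13 held at least 1 relaxed one. This count was 1 with lists of equal length, 32 with Ubx of Experiment 2 and 4 with the relaxed lists, and it was 26 in windows of 50 kb and 3 in windows of 200 kb. The fullest were on 3L from 20800001 to 20900000 (10 Abd-B and 5 relaxed Ubx peaks), on 3R from 17900001 to 18000000 (10 and 1) and on 2L from 10700001 to 10800000 (8 and 4). Ubx peaks outnumbered Abd-B peaks in 22 of 1141 windows. The share without a stringent partner did not follow the number of Abd-B peaks in a window, at 64.9% in windows with 1 such peak, 55.0% with 2 to 4, 55.9% with 5 to 9, 57.2% with 10 to 14 and 56.5% with 15 to 30. The share without a relaxed partner was 33.8% (24.2 to 44.9%), 26.8%, 25.8%, 25.8% and 24.0% (22.5 to 25.5%) in the same order.

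Among chromosomes the X stood lowest. The share of Abd-B peaks without a stringent Ubx partner was 51.2% on X (48.7 to 53.6%), 55.3% on 2R, 56.6% on 3R, 59.3% on 3L and 59.6% on 2L, and 56.8% on chromosome 4, where 88 peaks gave an interval of 46.4 to 66.7%. The X also had the fewest Abd-B peaks per Ubx peak, at 1.74, against 1.98 to 2.20 elsewhere. The share without a relaxed partner was 20.6% on X, 17.0% on 4 (10.6 to 26.2%), and between 24.0% on 2R and 28.6% on 3L for the other arms. The intervals of X and of each of 2L, 3L and 3R did not overlap for the share without a stringent partner, though peaks on 1 chromosome are not independent.

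The 4 other profiles, which took no part in forming the classes, were then examined at the Abd-B peaks. A stringent Abd-A partner was found at 52.5% of all Abd-B peaks, at 14 of the 2453 with no relaxed Ubx partner (0.571%), at 35.4% of those with a relaxed partner only and at 95.1% of those with a stringent partner. Abd-A, the Bithorax protein closest to Ubx in its homeodomain, was thus nearly without stringent peaks at the sites that had no relaxed Ubx partner. For Ubx of Experiment 2 the share was 36.9% of all Abd-B peaks, and it was 0.163%, 13.3% and 75.3% in the same order of classes. A stringent partner in mutant Ubx occurred at 14.6% of all Abd-B peaks, and at 0.122%, 2.55% and 31.7% of the classes.

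Of the 4 profiles, Ubx+Hth had the largest share of stringent partners in each class; at the relaxed q-value Abd-A had larger shares at Abd-B peaks with a relaxed Ubx partner only (95.2%, against 92.3% for Ubx+Hth) and with a stringent one (99.95%, against 98.98%). A stringent Ubx+Hth partner was present at 63.8% of all Abd-B peaks. It was present at 297 of the 2453 peaks with no relaxed Ubx partner (12.1%, 10.9 to 13.5%), at 60.5% of those with a relaxed partner only and at 96.2% of those with a stringent partner. In the highest-scoring of 5 bins of the Abd-B list, these shares were 22.9% (43 of 188), 79.4% and 99.3%, and those for Abd-A were 0.532%, 45.8% and 98.7%. The Ubx+Hth list was also longer than the others, with 7971 stringent peaks against 5656 for Abd-A and 4218 for Ubx of Experiment 2. By the read totals in the paper, Ubx+Hth was also sequenced several times more deeply than Abd-A or Ubx of Experiment 2. Mutant Ubx was the next deepest. How far list length or depth sets these shares was not tested.

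On 3R from 12173221 to 12174618, where the relaxed Ubx partner scored 14.05, the Ubx+Hth peak scored 282, and on 3R from 19845320 to 19846701, with a relaxed Ubx partner of 12.0, it scored 72.5. Of the 8 strongest Abd-B peaks with no relaxed Ubx partner, 1 had a stringent Ubx+Hth partner, the peak on 3R from 5256217 to 5257064 with a score of 22.0. The peaks on 3R at rank 63 and on 3L from 19839524 to 19840444 (score 333, rank 78) had no partner at either q-value in any other profile.

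**Figure D5:**
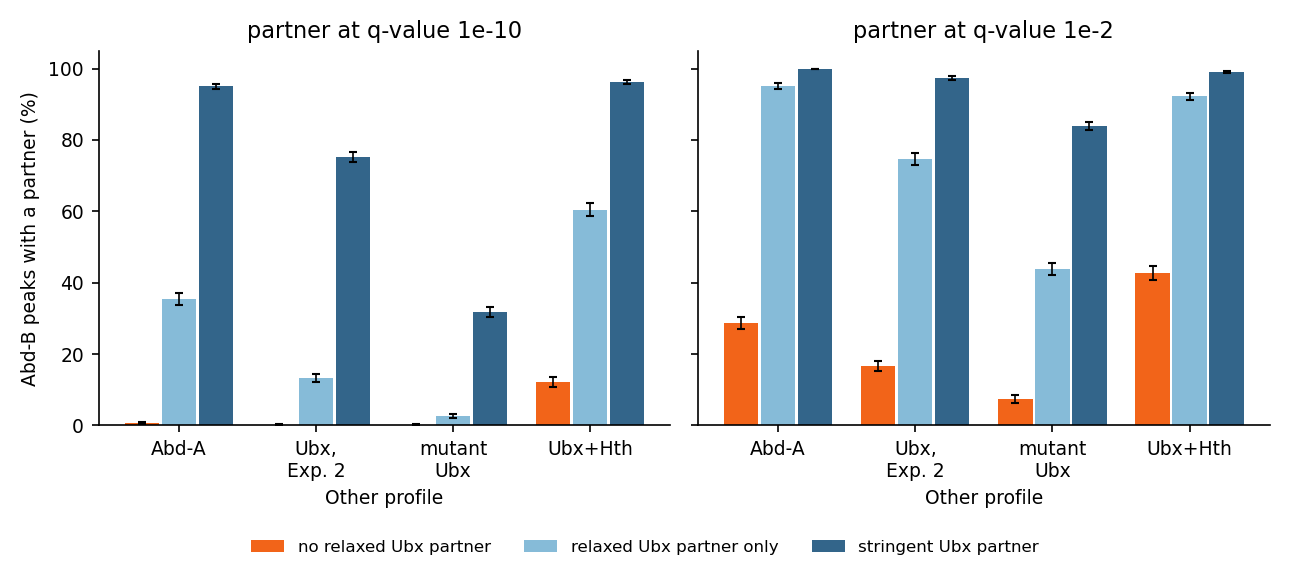
Percentage of Abd-B peaks with a partner (y axis) in Abd-A, in Ubx of Experiment 2, in mutant Ubx and in Ubx+Hth (x axis), called at a q-value of 1e-10 on the left and 1e-2 on the right. Bars stand for Abd-B peaks with no relaxed Ubx partner, with a relaxed partner only and with a stringent partner, and error bars are Wilson 95% intervals over peaks. The Abd-B peaks with no relaxed Ubx partner stay under 1% in every stringent list except Ubx+Hth, where they reach 12.1%.

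With the relaxed lists of the other profiles, the peaks with no relaxed Ubx partner still stood apart. Of these, 28.7% had a relaxed partner in Abd-A, 16.6% in Ubx of Experiment 2, 7.30% in mutant Ubx and 42.6% in Ubx+Hth. Over all Abd-B peaks the shares were 80.4%, 69.8%, 52.0% and 82.6% in the same order. In total, 1180 of the 2453 peaks with no relaxed Ubx partner (48.1%) had no relaxed partner in any of the 5 other profiles. Their median score was 39.4, against 43.2 for the peaks of the class with a partner elsewhere, and their highest was 340.

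In the reverse direction, 111 of the 4830 Ubx peaks had no stringent Abd-B partner (2.3%, 1.91 to 2.76%), and 30 (0.621%) had no Abd-B partner at either q-value. The share without a stringent partner moved with the settings. It was 23.0% with lists of equal length, 45.7% at a minimum reciprocal overlap of 50%, 3.60% for Ubx of Experiment 2 and 4.58% between the relaxed lists. None of the 483 Ubx peaks in the highest-scoring bin of 10 was without a stringent Abd-B partner, which allows a share of up to 0.789%, while 25 (5.18%) in the lowest bin were. The 111 had a median score of 23.5 and a median width of 299 bp, against 36.4 and 502 bp for matched Ubx peaks. Their highest score was 83.9. They lay a median of 1254 bp from the nearest stringent Abd-B peak, and 16 of them overlapped one by less than the minimum.

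These Ubx peaks had partners in the other profiles less often than the 4719 Ubx peaks with an Abd-B partner. They were also weaker and narrower, as given above, and the part of score and width in this difference was not tested. A stringent Abd-A partner was present for 63 of the 111 (56.8%), against 95.1% of the matched Ubx peaks. The shares were 38.7% (43 of 111) against 73.6% in Ubx of Experiment 2, 3.60% (4) against 30.4% in mutant Ubx and 78.4% (87) against 96.0% in Ubx+Hth. At the relaxed q-value, 85.6% of the 111 and 97.2% of the matched peaks had a partner in Ubx of Experiment 2. Of the 30 without any Abd-B partner, 14 touched a stringent Abd-B peak and 16 a relaxed one, so the 5% limit set much of this small class. The highest-scoring of the 30, on 2R from 207326 to 207634 (score 49.6, rank 1558), lay 46806 bp from the nearest Abd-B peak and had a partner scoring 34.2 in Ubx of Experiment 2. The next, on 2R from 7903065 to 7903377, scored 46.2 and lay 3257 bp from an Abd-B peak. On 3R from 19547648 to 19547909 and on 2L from 8424004 to 8424283, Ubx scored 40.5 and 34.1 and touched an Abd-B peak with less than 5% reciprocal overlap. The peak on 2R from 3799855 to 3800244 scored 38.9 and lay 3607 bp from an Abd-B peak.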

How the data were processed

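The deposited data are lists of ChIP-Seq peaks. The authors mapped read pairs to BDGP release 5 and kept unique alignments. Replicates were pooled, reads over the exons carried by the expression vectors (hth and the Bithorax Hox genes) were discarded, and MACS2 was run with the Experiment 1 input as control. The submitters' processing notes name Bowtie 1.0.1, SAMtools 0.1.19, bedtools 2.19.1 and MACS2 2.1.0.20140616. The deposited score is the -log10 q-value given by the authors' peak caller. Read totals are not in the lists.

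Overlaps, distances between peak edges, runs and 100 kb windows (peaks placed by midpoint) were computed with python 3.11.15, numpy 2.4.6, pandas 2.3.3 and scipy 1.17.1, and plotted with matplotlib 3.10.9. The overlap code was tested on simulated data and gave the counts of bedtools 2.31.1 in 132 of 132 ordered pairs of lists. A peak's percentile is its rank by score within its list. Distances of touching peaks are 0.

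Peaks named are the extremes of each measure: the 8 strongest with no relaxed Ubx partner, the 5 strongest with a relaxed partner only, the largest rank shifts, the highest pairs, those with most partners, the farthest, and the longest runs and fullest windows. The 5 strongest Ubx peaks without an Abd-B partner are also named. Members and rules were chosen with earlier results of these data known. The alternatives were other overlaps, lists of equal length, merged peaks, other window sizes, midpoint distances, the relaxed lists and Ubx of Experiment 2. Genome sequence, gene annotation of release 5 and protein sequences were not used here, so peaks are given by position without genes.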

Additional observations from a re-analysis of the deposited data

How the results depend on the processing

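Of 84 alternatives, 32 left a value within its counting interval, among them any overlap of 1 bp, and 52 moved it outside. The number of windows has no such interval, and its alternatives were sorted by a fixed ratio to the main count instead. The 32 include the merging of peaks closer than 100 bp, which left every value identical and so tested nothing. The closest Abd-B peaks lay 254 bp apart, so that list held none to merge. With a minimum reciprocal overlap of 50%, the share of Abd-B peaks without a stringent Ubx partner was 72.9%, without a relaxed partner 37.8%, and of Ubx peaks without an Abd-B partner 45.7%. The Spearman coefficient of scores was then 0.557, the width ratio 1.34, the share with 2 or more partners 0 (which allows up to 0.146%), the distance 3152 bp and the share of unmatched peaks with an unmatched neighbour 74.1%. With lists of equal length these were 33.3%, 12.6%, 23.0%, 0.415, 1.73, 12.8% and, for neighbours, 37.8%, and 1 window held 5 or more Abd-B peaks and no Ubx peak. With Ubx of Experiment 2 they were 63.1%, 30.2%, 3.60%, 0.433, 1.85, 11.8%, 6484 bp, 65.3% and 32 windows. With relaxed lists of both proteins the unmatched share was 40.4% for Abd-B and 4.58% for Ubx, the Spearman coefficient 0.623, the width ratio 1.33, the distance 3314.5 bp, neighbours 45.8%, and 4 windows.

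The median distance was 5862 bp between midpoints and 2574 bp to relaxed Ubx peaks for peaks without a relaxed partner. Windows of 50 and 200 kb numbered 26 and 3, and 0 lacked a relaxed Ubx peak. Taking relaxed Ubx peaks with a score of 10 or more, 3 alternatives chosen after seeing the data, gave 37.8% unmatched, 3382 bp and 42.2% of neighbours. In the relaxed lists of the other profiles, the shares with a partner for no relaxed, relaxed only and stringent Ubx partner were 28.7%, 95.2% and 99.95% in Abd-A, 16.6%, 74.7% and 97.4% in Ubx of Experiment 2, 7.30%, 43.8% and 83.9% in mutant Ubx, and 42.6%, 92.3% and 98.98% in Ubx+Hth. The cause of these shifts was not tested.

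No paired analysis was possible because the replicates of each protein were combined before peaks were called; leaving out a replicate was not possible either. A larger unmatched share for Abd-B than for Ubx was found in the 6 settings that computed both shares. In all but the lists of equal length the Abd-B list was the longer, which favours this direction, so they do not test it. With lists of equal length the shares were 33.3% for Abd-B and 23.0% for Ubx. An Abd-B peak could still match several Ubx peaks there, and 12.8% of matched Abd-B peaks did. Sequencing depth is not in the lists, and its part in any value was not tested.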

Other observations

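The relaxed Abd-B peaks that lay outside all stringent Abd-B peaks were mostly without Ubx. Of 3716 such peaks, 796 had a relaxed Ubx partner (21.4%, Wilson 95% interval 20.1 to 22.8%) and 65 a stringent one (1.75%). Of the 8606 relaxed Abd-B peaks that overlapped a stringent one, 6554 had a relaxed Ubx partner (76.2%, 75.2 to 77.0%).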
